A study of Caenorhabditis elegans with 2 samples.

Results

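Among 30000 candidate regions listed for the worm homeodomain protein CEH-36 in early embryos, 1248 nuclear regions stayed outside the authors' optimal list but met strong entries of both replicates. They are called shared sub-threshold sites here. Each one overlapped no optimal peak by 1 bp or more, and overlapped at least 1 of the 5000 entries of highest signal in the list of replicate 1 and at least 1 of the 5000 highest in the list of replicate 2. They were 1248 of the 28017 nuclear pooled entries off the optimal list. A further 5055 of these entries were among the strongest of 1 replicate (1-replicate entries), and 21714 among the strongest of neither (remaining entries). The optimal list itself held 1662 peaks, of which 1636 were nuclear and are used for comparison.

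The data were ChIP-seq peak lists from whole early embryos of strain OP620, collected 2 hours after synchronization by egg bleaching, with both sexes pooled. OP620 has the genotype unc-119(tm4063) III; wgIs620 and carries CEH-36 fused to a C-terminal GFP-FLAG tag, and chromatin was precipitated through GFP after sonication. The samples were biological replicates 1 and 2 of a single group, so there was no second condition to compare. A list from an untagged strain was not analysed here. Because whole embryos were used, strong binding in few cells and weak binding in many cells cannot be told apart, and the cell types behind a region cannot be named. Read depth is unknown from peak lists, so intervals below cover the counting of regions only.

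CEH-36 belongs to the Otx class of homeodomain proteins, which carry a lysine at a fixed position of the homeodomain and bind the core TAATCC. In the worm it is known for its role in the fate of the AWC olfactory and ASE taste neurons, and it also acts in progenitor cells of the embryo. Its closest relatives include TTX-1, which specifies the AFD thermosensory neuron. The irreproducible discovery rate (IDR) measures how reproducible the rank of a region is between lists. Whether the lists compared for the optimal list came from the replicates or from pooled reads was not examined here. The optimal list consisted of the strongest pooled entries.

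The strongest shared sites that held the core outside repeats and small RNA genes are shown as 30-base stretches around the core closest to the summit, 5′ to 3′ from the strand that reads TAATCC, with the core in capitals (NCBI RefSeq genome, WBcel235, the same assembly as ce11). They are the 6 strongest of this kind with different nearest genes, with 1 chromosome not shown. The hip-1 site lay in an exon of hip-1, the sites of npr-43, lin-1 and paf-2 in introns of those genes, and the T23F2.5 site in intergenic DNA. The last site has vit-4 as its nearest protein-coding start but lay in an intron of rgs-7.
hip-1 (chrIII:13621727-13621756, minus strand): cgcaattgaggcTAATCCaggatctgcaat
npr-43 (chrV:14378230-14378259, minus strand): ttggaaaagtttTAATCCttctaaagctat
lin-1 (chrIV:2294462-2294491, minus strand): aagaagaagagcTAATCCggccccgccggt
paf-2 (chrX:4292921-4292950, minus strand): ttaatcgtttttTAATCCttttacaaatgt
T23F2.5 (chrX:5518607-5518636, plus strand): gttttttgaaagTAATCCtgtgggaaaccg
vit-4, in rgs-7 (chrX:3555621-3555650, plus strand): tggattatcgacTAATCCggcagaaggaat
None of these 6 genes was the nearest gene of an optimal peak, which is the usual case, since only 6.86% of all genes were.

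Whole 201-base summit windows show how the cores sit and what a site in a telomere repeat looks like. They are written from the plus strand, so a core on the minus strand reads GGATTA. The lin-1 window holds 2 cores, both read from the minus strand, and the rgs-7 window holds 2 that face away from each other. In the third window the capitals mark copies of the telomere unit TTAGGC. It lay in an intron of snt-5 and was the strongest shown here in a telomere repeat, which means 3 or more units in a window about as wide as the entry, centred on the summit.
lin-1 (chrIV:2294365-2294565, plus strand): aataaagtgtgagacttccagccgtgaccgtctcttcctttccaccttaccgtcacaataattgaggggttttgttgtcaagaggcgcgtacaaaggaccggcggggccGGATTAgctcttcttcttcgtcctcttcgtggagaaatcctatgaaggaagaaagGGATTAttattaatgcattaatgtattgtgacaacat
vit-4, in rgs-7 (chrX:3555555-3555755, plus strand): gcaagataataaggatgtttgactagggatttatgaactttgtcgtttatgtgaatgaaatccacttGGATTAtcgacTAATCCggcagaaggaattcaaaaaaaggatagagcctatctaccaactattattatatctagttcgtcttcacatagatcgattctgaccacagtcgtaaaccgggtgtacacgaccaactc
Y75B7AR.1, in snt-5 (chrV:1399075-1399275, plus strand): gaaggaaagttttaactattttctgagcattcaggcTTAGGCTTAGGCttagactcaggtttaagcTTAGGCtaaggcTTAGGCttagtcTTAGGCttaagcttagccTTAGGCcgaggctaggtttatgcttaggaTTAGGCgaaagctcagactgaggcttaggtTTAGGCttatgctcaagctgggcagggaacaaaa

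Shared sites near regulatory genes are shown for the homeobox list and for a few epidermal and excretory genes, again with the core in capitals. These were selected from the gene lists after their values had been seen.
ttx-1 (chrV:20065162-20065191, plus strand): cctagcaagtggTAATCCtttattgactct
nob-1 (chrIII:12092707-12092736, plus strand): cggctaatttgcTAATCCattaaccacaca
ceh-27 (chrV:11657972-11658001, minus strand): gttgtttaagacTAATCCctttgacaaata
ceh-23 (chrIII:7835073-7835102, minus strand): ctttttccataaTAATCCacaggtcatcta
ceh-62 (chrII:10804312-10804341, plus strand): ccccccacgcctTAATCCcagatctgtttc
mls-2 (chrX:4765206-4765235, plus strand): tacctagagtgcTAATCCctggcaaccgga
lim-4 (chrX:3872057-3872086, minus strand): gtaatattacagTAATCCcccagtccttgg
unc-42 (chrV:9764860-9764889, minus strand): caactcgttcacTAATCCcattgcaaagtt
unc-39 (chrV:14373206-14373235, plus strand): ctcgcctataatTAATCCtcaacacaaatt
lin-26 (chrII:7682864-7682893, plus strand): aagaacatctcaTAATCCtcttcatcaact
egl-44 (chrII:5927147-5927176, plus strand): aaacgcttaccgTAATCCaccgggagcatg
elt-1 (chrIV:9615946-9615975, plus strand): tttactctactcTAATCCatcaactctctt
pros-1 (chrIII:8067033-8067062, plus strand): tccttttttgcaTAATCCtacttacgaccg

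The signal values that selected the sites describe where they stand and carry no test. Pooled signal, the authors' peak strength in arbitrary units, had a median of 71.4 over the shared sites, with a lowest value of 25.2 and a highest of 87.2. In optimal peaks the median was 124, the lowest value 87.2 and the highest 942. The 1-replicate and remaining entries had medians of 53 and 33.5. The weakest optimal peak and the strongest shared site both had a pooled signal of 87.2. In the replicate lists the shared sites had a median signal of 33.8 in replicate 1, between 28.2 and 101, and of 40 in replicate 2, between 33.9 and 121. Signal scales belong to each list and are not comparable between lists. The pooled q-value was under 0.05 for 827 sites, or 66.3%, and under 0.01 for 174 sites, or 13.9%.

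**Figure D1:**
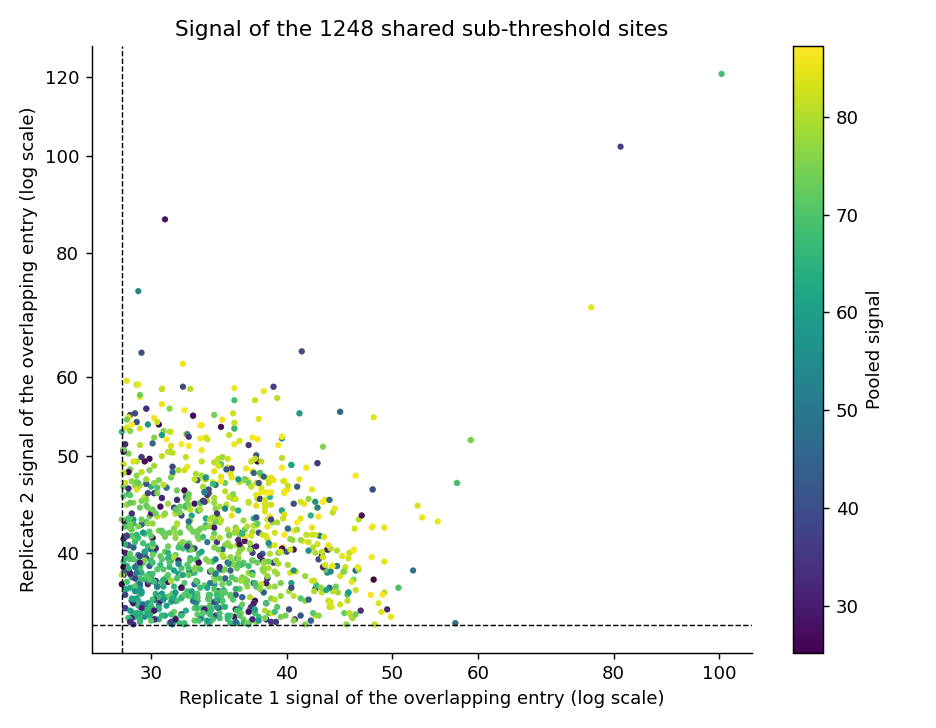
Signal of the replicate 1 entry (horizontal, log scale) and the replicate 2 entry (vertical, log scale) that each of the 1248 shared sub-threshold sites overlapped, coloured by pooled signal in arbitrary units. Dashed lines mark the signal of the 5000th entry of each list, 28.21 in replicate 1 and 33.85 in replicate 2, and the points crowd in the corner just above both.

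Many shared sites lay close to those limits. At the limit, the site nearest to odd-2 had rank 4995 in replicate 1 and 3546 in replicate 2, while an entry nearest to psd-1 had ranks 5003 and 3418 and was left out. Only 34 sites, or 2.72%, ranked 2000 or better in both replicates.

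The highest ranks in both replicates came from 2 regions beside optimal peaks. The site nearest to T05A8.3 had ranks 290 and 302 in replicates 1 and 2, and the madd-2 site had ranks 435 and 425. Both lay in telomere repeats with their summits 205 bp from an optimal summit, and a replicate entry they overlapped was itself on an optimal peak. Of the 1248 sites, 7 overlapped at least 1 such replicate entry, and for 4 of them the entries of both replicates were on an optimal peak. Next came a site nearest to Y106G6H.9 with ranks 487 and 853, whose nearest optimal summit was 54319 bp away.

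Neighbouring entries of the pooled list can overlap the same replicate entry. The 1248 sites fell into 1009 loci, of which 772 held 1 site and 237 held 2 to 4. Both replicate summits lay inside the pooled entry, which is 390 bp wide for 1247 of the sites, at 951 sites, or 76.2%. TAATCC was found near 39.5% of these summits, against 19.5% of the other 297. Distance to the nearest optimal summit had a median of 14877 bp, and 763 sites, or 61.1%, were more than 10000 bp from any. Only 39 were within 1000 bp.

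The homeodomain core was concentrated at the summits of the shared sites. TAATCC, on either strand, lay within 100 bp of the summit in 434 of 1248 sites, or 34.8% (95% exact binomial interval 32.1 to 37.5), against 7.13% in windows of the same length 500 bp to the left of the same summits. The core was in the summit window alone at 396 sites and in the flank alone at 51, a ratio of 7.76 (95% interval 5.79 to 10.6, exact sign test, adjusted p = 3.07e-66 over 10 motifs). Of 498866 windows that tile the nuclear genome, 6.69% held TAATCC. Regions of 1 pair of libraries are not independent samples, so these p-values describe the lists and not a spread between worms.

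Outside telomere repeats and tRNA or snoRNA genes the core share was about as high. There, 389 of 1095 shared sites, or 35.5%, held it at the summit and 7.31% in the flank. These 389 are called core-only sites below. Among all 2080 possible 6-letter sequences, counting a sequence and its reverse complement once, TAATCC ranked first for excess of summit over flank in these 1095 sites. The ranking took sites with the sequence at the summit alone minus those with it in the flank alone, divided by the square root of their sum. It also ranked first for the difference from 1-replicate entries, with 35.5% in shared sites and 24.8% in 1-replicate entries. Next in the ranking of summit over flank was AATCCC, at 19.5% of summits and 5.66% of flanks, then CCCCCC, at 14.2% and 3.20%, and CCTCCC, at 12.5% and 2.74%. The fifth was TTAATC, at 23.9% and 10.3%, which overlaps the core, as does the sixth, which was at 17.8% and 5.84% and reads CTAATC. The last of all was AAAATT, at 41.6% of summits and 64.5% of flanks.

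**Figure D2:**
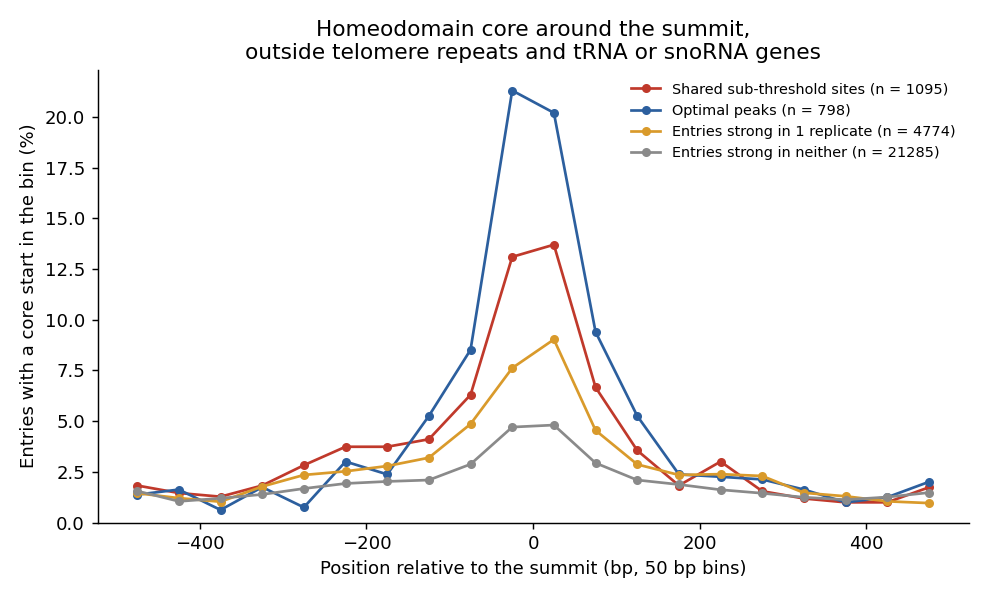
Share of entries with a core start in each 50 bp bin around the summit (horizontal, bp), outside telomere repeats and tRNA or snoRNA genes, for shared sub-threshold sites, optimal peaks, 1-replicate entries and remaining entries. The bins on both sides of the summit hold a core in 13.1% and 13.7% of shared sites and in 21.3% and 20.2% of optimal peaks, and all 4 lines fall towards a common level far from the summit.

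The other motifs counted at the summit fell on both sides of the flank. The longer forms CTAATCC (11.7% at summits and 0.881% in flanks) and TAATCCC (11.1% and 1.04%) had ratios of 13.3 and 10.7, with adjusted p = 1.48e-30 and 2.82e-27 (exact sign tests). The form TAATCT was at 15.4% of summits and 9.13% of flanks (ratio 1.87, adjusted exact p = 1.96e-06). GAGAGA, a GA repeat found at many active worm promoters, was at 20% of summits and 12.3% of flanks (ratio 1.80, adjusted exact p = 3.60e-07). CCGCCC, which resembles the site of SP1-type zinc fingers, was at 9.94% and 3.85% (ratio 2.73, adjusted exact p = 4.92e-09). TGATAA, the site of GATA factors, was rarer at summits, at 10.4% and 15.8% (ratio 0.617, adjusted exact p = 1.02e-04). TAATTA, the core of homeodomains with a glutamine in place of that lysine, was at 7.93% of summits and 9.46% of flanks, which did not pass the threshold (ratio 0.829, 95% interval 0.622 to 1.1, adjusted exact p = 0.206). It passed, again rarer at summits, when replicate 2 alone decided the members (ratio 0.761, adjusted exact p = 0.00146) and with 200 bp on each side of the summit (ratio 0.783, adjusted exact p = 0.0346). The E-box CAGCTG was at 4.89% and 3.21% (ratio 1.57, adjusted exact p = 0.0440), and it lost this call under several alternatives, among them with a flank on the right side (adjusted exact p = 0.157) or with both replicate summits inside the entry (adjusted exact p = 0.0592). TTAGGC stood at 15.1% and 6.97% (ratio 2.49, adjusted exact p = 1.05e-10), and outside telomere repeats and small RNA genes at 6.03% and 6.39% (ratio 0.939, adjusted exact p = 0.791).

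Shared sites held the core more often than weaker entries and less often than optimal peaks. The share was 34.8% of shared sites, 24.6% of 1-replicate entries (odds ratio 1.63, 95% interval 1.42 to 1.87, Fisher's exact test, adjusted p = 4.96e-12) and 15.4% of remaining entries (odds ratio 2.92, 95% interval 2.58 to 3.31, adjusted p = 4.82e-58). Against 41.9% of optimal peaks the odds ratio was 0.738 (95% interval 0.632 to 0.862, adjusted exact p = 2.87e-04). That last difference did not pass the threshold when only the strongest site of each locus was counted (39% of shared sites and 41.9% of optimal peaks, adjusted exact p = 0.220). It was larger outside repeats and small RNA genes, at 35.5% of shared sites and 46.7% of optimal peaks (odds ratio 0.628, adjusted exact p = 3.33e-06). Over all sites, the form with C before the core differed more, at 11.7% of shared sites and 25.2% of optimal peaks (odds ratio 0.392, 95% interval 0.317 to 0.484, adjusted exact p = 7.21e-20). Outside repeats and small RNA genes it was at 10.6% and 19.9% (odds ratio 0.476, adjusted exact p = 8.33e-08). There the form with C after the core differed about as much, at 12.1% and 22.1% (odds ratio 0.489, adjusted exact p = 8.33e-08).

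The difference from 1-replicate entries moved with signal. Pooled signal was lower in 1-replicate entries. In entries of like signal the share was higher in shared sites in some ranges and lower in others, with no test by range. At a pooled signal of 50 to 60 the core was in 31.6% of 79 shared sites and 26.6% of 1434 1-replicate entries. At a pooled signal of 60 to 70 the core was in 38% of 279 shared sites and 31.6% of 1058 1-replicate entries, at 70 to 80 in 39.7% of 408 and 36.9% of 360, and at 80 to 88 in 43.2% of 273 and 45.5% of 66. Restricted to the interquartile range of the shared sites' pooled signal, the share was 38.8% of shared sites and 32.9% of 1-replicate entries, which no longer passed the threshold (odds ratio 1.29, 95% interval 1.05 to 1.59, adjusted exact p = 0.260). The interval, which is not adjusted, lay above 1. The adjustment covered 10 motifs against both 1-replicate and remaining entries, so this comparison does not settle the difference at like signal. Just inside and just outside the rule the shares are given with no test. Of 525 shared sites whose lower rank was 4001 to 5000, 33.1% held the core, and of 468 1-replicate entries whose lower rank was 5001 to 6000, 32.3% did.

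**Figure D3:**
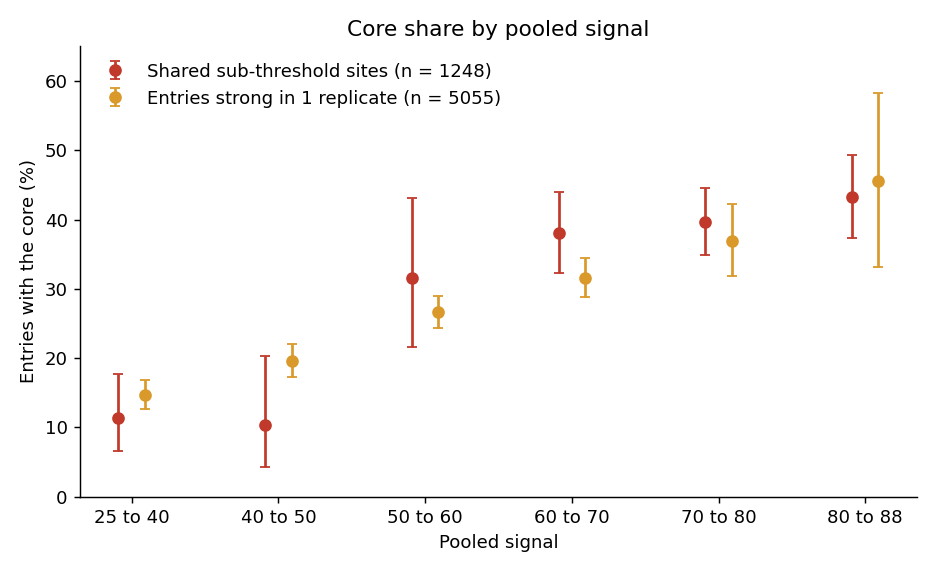
Share of entries with TAATCC within 100 bp of the summit (vertical, %) by pooled signal (horizontal, arbitrary units), for shared sub-threshold sites and 1-replicate entries, with 95% exact binomial intervals. The share climbs with signal in both groups, to 43.2% of shared sites and 45.5% of 1-replicate entries at a signal of 80 to 88.

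Weak pooled signal marked the shared sites that rarely held the core. At a pooled signal of 25 to 40 it was in 11.3% of 142 shared sites (95% exact binomial interval 6.58 to 17.7) and 14.7% of 1063 1-replicate entries, and at 40 to 50 in 10.4% of 67 shared sites and 19.6% of 1074 1-replicate entries. Of the 165 shared sites beyond pooled rank 10000, only 5 had both replicate summits inside the pooled entry.

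Copies of the core were fewer than in optimal peaks, and C flanked them less often. At least 2 copies lay near 8.97% of shared summits (95% exact binomial interval 7.45 to 10.7), against 16% of optimal summits (14.3 to 17.9) and 4.53% of 1-replicate entries (3.97 to 5.14). Outside repeats and small RNA genes, the median distance of the nearest core from the summit was 25.5 bp in shared sites and 20.5 bp in optimal peaks. The base before the core was C in 23.8% of 513 copies in shared sites, in 32.9% of 580 copies in optimal peaks and in 17.4% of 36668 copies in the nuclear genome. The base after it was C in 27.3%, 34.1% and 15.7% of these copies. Core-only shared sites held 124 pairs of neighbouring cores, 83 in the same orientation and 41 in opposite ones, with a median gap of 33.5 bp. Those at most 20 bp apart numbered 48, of which 37 had the same orientation. These base and spacing values are descriptions with no test.

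Of the 1248 sites, 706 or 56.6% held no core and no telomere repeat or small RNA gene. They had a median pooled signal of 68.5 and a median GC content of 44.3%, against 73.3 and 40.8% in the 389 core-only sites. Both replicate summits lay inside the pooled entry at 68.4% of them and at 85.1% of core-only sites. GAGAGA was within 100 bp at 24.5% of them and at 16.5% of core-only sites, and CCGCCC at 12.2% and 7.97%. Among the 18 sequences that differ from TAATCC by a single base, the ratio of summit-only to flank-only sites in these 706 was highest for TACTCC (6.09% of summits and 3.12% of flanks), TAATCT (14.3% and 8.07%) and CAATCC (7.51% and 4.53%). It was lowest for TAATCA (7.65% and 11.8%) and TAATTC (10.3% and 15.6%).

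The place of the shared sites in the genome differed from that of optimal peaks mainly through repeats, small RNA genes and exons. A telomere repeat was at 9.86% of shared sites, against 34.9% of optimal peaks (odds ratio 0.204, 95% interval 0.164 to 0.253, Fisher's exact test, adjusted p = 7.16e-58). A tRNA gene within 500 bp or a snoRNA gene within 200 bp was at 30 sites, or 2.40%, against 16.4% of optimal peaks (odds ratio 0.126, adjusted exact p = 9.26e-39). Exon summits were more frequent, at 15.6% of shared sites, against 4.52% of optimal peaks (odds ratio 3.91, 95% interval 2.94 to 5.24, adjusted exact p = 1.18e-23). Intron summits made up 31.1% of shared sites and 38.3% of optimal peaks (odds ratio 0.728, adjusted exact p = 1.39e-04). Intergenic summits made up 27.2% and 32% (odds ratio 0.794, adjusted exact p = 0.00902), a call that was lost when only sites with both replicate summits inside the entry were counted (adjusted exact p = 0.0839). Summits within 500 bp of a protein-coding gene start made up 26.1% and 25.2% and did not pass the threshold (odds ratio 1.05, 95% interval 0.881 to 1.24, adjusted exact p = 0.606). Within 200 bp of a start the shares were 12.9% of shared sites and 10.1% of optimal peaks (adjusted exact p = 0.0274).

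Against 1-replicate entries the shared sites were less exonic and richer in telomere repeats. Exons held 15.6% of shared sites and 24.5% of 1-replicate entries (odds ratio 0.570, 95% interval 0.481 to 0.674, adjusted exact p = 1.38e-11), and telomere repeats 9.86% and 3.74% (odds ratio 2.81, adjusted exact p = 6.25e-16). Gene starts held 26.1% and 22.6% (odds ratio 1.21, adjusted exact p = 0.0119), a call lost when entries had to be covered over 50% of their length (adjusted exact p = 0.0538). Intergenic DNA held 27.2% and 24.1% (odds ratio 1.18, adjusted exact p = 0.0337), a call lost with the strongest entry of each locus alone (adjusted exact p = 0.0581). Introns (31.1% and 28.9%, adjusted exact p = 0.152) and tRNA or snoRNA genes (2.40% and 1.82%, adjusted exact p = 0.225) did not pass. Signal differed between these groups as above, and its part in the location differences was not tested.

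**Figure D4:**
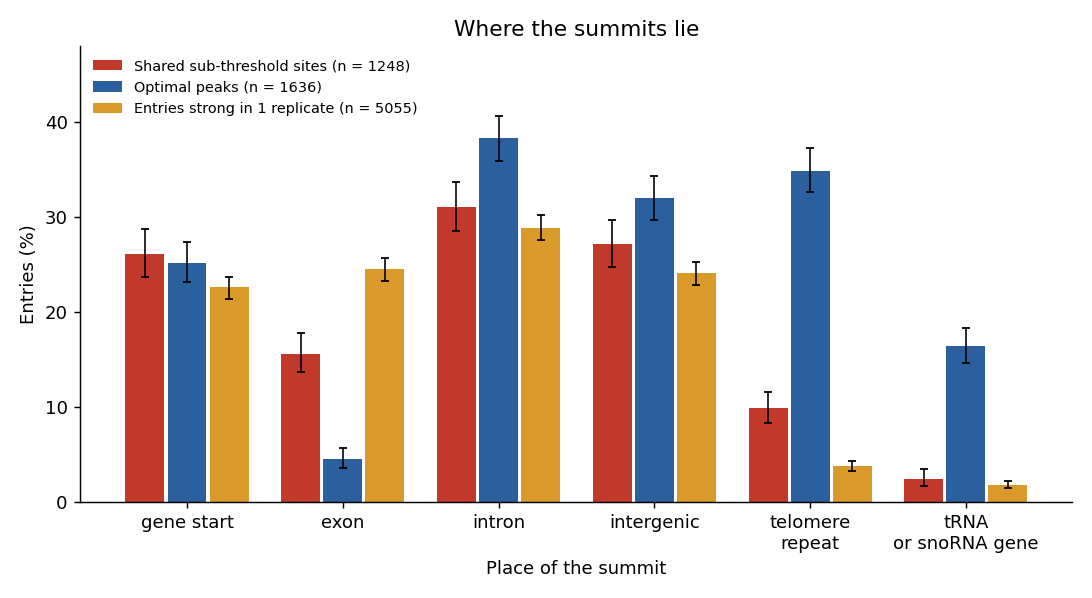
Share of summits (vertical, %) at protein-coding gene starts, in exons, introns and intergenic DNA, and, counted separately, in telomere repeats and at tRNA or snoRNA genes, for shared sub-threshold sites, optimal peaks and 1-replicate entries, with 95% exact binomial intervals. Exons hold 15.6% of shared sites and 4.52% of optimal peaks, and telomere repeats 9.86% and 34.9%.

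The core was present in shared sites of every place. It was within 100 bp of 31.3% of the 326 summits at gene starts, 34.4% of those in exons, 38.1% of the 388 in introns and 34.5% of the 339 in intergenic DNA. Optimal peaks had 30.8%, 43.2%, 49.4% and 41.7% in the same places. In telomere repeats 33.3% of shared sites held the core, against 51.5% of optimal peaks there. By chromosome, the shared sites numbered 217 on I, 263 on II, 239 on III, 192 on IV, 162 on V and 175 on X.

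Most genes nearest to a shared site were nearest to no optimal peak, as were most genes of the genome. Of 19973 nuclear protein-coding genes, 936 were the nearest start of at least 1 shared site, which is 4.69% of all genes, and 757 of the 936, or 80.9%, were the nearest start of no optimal peak. Core-only sites had 356 nearest genes, 1.78% of all, and 291 of these were nearest to no optimal peak. For comparison, optimal peaks had 1371 nearest genes, 6.86% of all, so being nearest to none is the usual case. The other 179 of the 936 genes were nearest to an optimal peak too, a larger share than that 6.86%. Counted by a window from 1500 bp upstream to 500 bp downstream of the start, 514 genes, 2.57% of all, held a shared site. Of these, 493 held no optimal summit. This share is close to that over all 19973 genes, of which only 823 held an optimal summit in the window. Core-only sites fell in this window of 162 genes, 0.811% of all. The nearest start is a rule of distance that does not allow for how much DNA lies closest to each gene. The regulated gene was not measured.

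The genes next to most shared sites were F54F2.6 with 6 sites in 2 loci and ctsa-1.2 with 5 in 3 loci, followed by 8 genes with 4 each. Of these 8, Y67D8C.9 and ptp-3 had their sites in 3 loci, and T28F4.1 had the strongest site among the rest. The F54F2.6 sites lay in introns of zfp-1, the worm homologue of the chromatin protein AF10, or at the start of F54F2.6. The strongest of them had a pooled signal of 86.7, with 41.3 in replicate 1 and 63.7 in replicate 2. ceh-36 itself and unc-119, which the strain's transgene and mutation concern, were the nearest gene of 0 shared sites, with 2 and 1 optimal peaks nearest to them.

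The strongest sites ranged across places and contents. Among the 10 strongest were hip-1 (pooled signal 87.2, replicate signals 39.6 and 52.3) and sites upstream of M163.1 and of mml-1, a Myc-related transcription factor of the bHLH family. The M163.1 and mml-1 sites had pooled signals of 87.2 and 87.1 and no core. Others were sites in introns of tol-1, the worm Toll receptor, and of npr-43, at 87.0 each. Of these, npr-43 held 2 cores. Another 4 of the 10 strongest were in telomere repeats, nearest to Y75B7AR.1, E02H9.13, T13B5.9 and egl-18.

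The 12 strongest core-only sites had pooled signals between 86.4 and 87.2. Beside the 6 shown above they were nearest to nmat-2, Y67D8C.9, ver-1, lgc-30, C37A5.11 and paic-1. The ver-1 site lay in an intron of ver-1, which encodes a receptor tyrosine kinase of amphid sheath glia that is known as a target of TTX-1, and had signals of 38.7 in replicate 1 and 46 in replicate 2. The C37A5.11 site lay in an exon of pry-1, which encodes an Axin of the Wnt pathway. The lgc-30 site was 351 bp upstream of the start, with 28.8 in replicate 1 and 53.8 in replicate 2. Of the 12 nearest genes, Y67D8C.9 alone was also the nearest gene of an optimal peak, beside 6.86% of all genes.

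Genes of the AWC and ASE neurons, in which CEH-36 is known to act, were among those nearest to a shared site. Of 32 genes on this list 6 were nearest to a shared site and 4 to a core-only one, against 4.69% and 1.78% of all genes. In the start window defined above, 0 of the 32 held a shared site, beside 2.57% of all genes. An optimal peak was nearest to 9 of the 32, or 28.1%, beside 6.86% of all genes. Of the 6, 4 had no optimal peak. The strongest core-only site was in an intron of che-1, the zinc finger selector of ASE identity, 2630 bp downstream of its start. It had a pooled signal of 84.5, with 33.7 in replicate 1 and 52.2 in replicate 2, and che-1 had no optimal peak. ceh-23, a homeobox gene of sensory and interneurons, had 2 core-only sites 4540 and 1893 bp upstream with pooled signals of 79.1 and 77.4. unc-43, the CaMKII gene that acts in AWC asymmetry, had an intron site of 77.5. lsy-22 had core-only and coreless entries of 1 locus, 856 and 651 bp from an optimal summit, with pooled signals of 56.3 and 83.5.

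Of 78 listed homeobox genes, 12 were nearest to a shared site, or 15.4%, and 9 to a core-only one, or 11.5%, beside 4.69% and 1.78% of all genes. In the start window 5 of the 78 held a shared site, beside 2.57% of all genes. Of the 78, 19 were nearest to an optimal peak, or 24.4%, beside 6.86% of all genes. Of the 12 nearest to a shared site, 8 had no optimal peak. nob-1, a posterior Hox gene, had the strongest core-only site, 8379 bp upstream, with a pooled signal of 81.6 and replicate signals of 28.3 and 49.1. ttx-1, the Otx gene of the AFD neuron, followed with 81.4, and with 35.4 in replicate 1 and 52.5 in replicate 2. Its second core-only site, 8078 bp upstream, had a pooled signal of 70.8, and ttx-1 was also nearest to 3 optimal peaks. Then came ceh-27 with 79.7 and ceh-23.

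The other homeobox genes on this list with a core-only site lay lower. ceh-62 had a pooled signal of 73.4, mls-2, which acts in AWC upstream of ceh-36, 71.3, lim-4, the LIM gene of the AWB olfactory neuron, 68.5, unc-42 67.5, and unc-39, of the sine oculis family, 64.3. None of these 5 genes had an optimal peak, as was the case for most of the 78 on the list, of which 19 had one. Their sites lay 23899 to 181715 bp from the nearest optimal summit. cog-1, lim-7 and zag-1 had shared sites without being nearest to a core-only one.

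The hand-picked list named epidermis regulators had the highest share of any list for shared sites. It is not made of epidermal genes alone, as lin-1 also counts in the excretory list and ztf-11 in the Sox list. Of 24 genes, 8 were nearest to a shared site, or 33.3%, and 6 to a core-only one, beside 4.69% and 1.78% of all genes. In the start window 2 of the 24 held a shared site, beside 2.57% of all genes. An optimal peak was nearest to 6 of the 24, or 25%, beside 6.86% of all genes. Of the 8, 5 had no optimal peak. The lists were chosen with results of these data known, so the order of the lists is a description. lin-1, the ETS factor downstream of Ras, had a pooled signal of 86.9 with 49.0 in replicate 1 and 36.3 in replicate 2. The egl-44 site, 1589 bp upstream of this TEAD gene, had 82.2, and the ztf-11 site, in an intron of this Myt1-type zinc finger gene, had 82.1 and 3 cores. lin-26, the zinc finger gene of epidermal identity, had a site of 77.6 in an exon, with 32 in replicate 1 and 43.6 in replicate 2. sma-9, a Schnurri homologue, had 76.3 at its start. elt-1, the GATA factor that specifies epidermis, had 2 entries of 1 locus, a coreless one of 78.4 and a core-only one of 58.2, and the nearest optimal summit was 137987 bp from the stronger entry.

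Excretory genes shared lin-1 with that list and had 6 of 28 nearest to a shared site, or 21.4%, and 4 to a core-only one, or 14.3%, beside 4.69% and 1.78% of all genes. In the start window 4 of the 28 held a shared site, beside 2.57% of all genes. lpr-1, a lipocalin needed for the duct lumen, had a pooled signal of 77.9 in an intron. The Prospero gene pros-1 had 75.5 at its start, with 38.4 in replicate 1 and 37.7 in replicate 2, and also a tRNA gene site of 81.1. let-60, the Ras gene, had 62.3 with 3 cores 1015 bp upstream. The Wnt list had 7 of 32 nearest to a shared site, or 21.9%, and 2 to a core-only one, or 6.25%, and 3 with a shared site in the start window. Its core-only members were pop-1, the TCF factor, with 71.8 and 70.2 at 2 sites, and wrm-1, a beta-catenin, with 65.2. The frizzled genes mig-1 and lin-17, together with mom-1, dsh-1 and bet-2, had sites without the core. The Notch list had 1 of 20, or 5.00%, which is near the 4.69% of all genes. This gene was sel-8, whose sites lay in ptp-1 at 17687 and 17485 bp from the sel-8 start.

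The lists of other fate factors are also set beside 4.69% of all genes for shared sites and 1.78% for core-only ones. Of 38 Sox, forkhead and zinc finger genes 6 were nearest to a shared site, or 15.8%, and 4 to a core-only one, or 10.5%. The core-only genes were ztf-11, sem-2 of the SoxC family with 77.4, the forkhead gene unc-130 with 71.6 and the FOXO gene daf-16 with 66.9. None of the 6 had an optimal peak, while 7 of the 38 did, or 18.4%, beside 6.86% of all genes. T-box genes had 2 of 21, or 9.52%, tbx-43 at 79.9 and tbx-33 at 76.6, both core-only. GATA and endoderm factors had 3 of 14, or 21.4%, of which elt-1 was core-only and egl-18 and elt-6, GATA genes of the seam, were not. All 3 also count in the epidermal list. Lists overlap elsewhere too, as ceh-23 and cog-1 count in the AWC and ASE list and the homeobox list. Likewise sox-2 counts in the AWC and ASE list and the Sox list, and ztf-11 in the epidermal list and the Sox list. bHLH genes had 4 of 40, or 10%, with mdl-1 the only core-only gene at 63.2. Of 23 cell death genes 3, or 13%, namely ced-3, ced-6 and ces-2, had shared sites and 0 a core-only one.

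Genes of differentiated cells and large gene families are given beside the same 4.69% and 1.78% of all genes. Cilium genes had 3 of 48, or 6.25%, with core-only sites at osm-12, a Bardet-Biedl gene, at 74.1 and at daf-19, the RFX factor of cilia, at 67.5. Pan-neuronal genes had 5 of 29, or 17.2%, with unc-108 at 80.3 and unc-31 at 70.6 core-only. Body wall muscle genes had 4 of 30, or 13.3%, with the perlecan gene unc-52 at 75.9 and the troponin T gene tnt-3 at 51.9 core-only. The tnt-3 entry shared its locus with a stronger entry of 67.1 that held no core. Cuticle collagens had 11 of 175, or 6.29%, histone genes 4 of 72, or 5.56%, with 0 core-only, and cytosolic ribosomal protein genes 4 of 76, or 5.26%. These last shares were near the 4.69% of all genes. Nuclear hormone receptors had 4 of 269, or 1.49%, and chemoreceptors 14 of 1269, or 1.1%, both under the 4.69% of all genes. Among chemoreceptors the core-only genes were srt-23 at 84.9, sre-14 at 81.8 and srh-60 at 72. Among the collagens they were led by col-81 at 80.5, whose site lay in an intron of ptp-3, then col-115 at 76.8, col-33 at 73.5 and col-110 at 68.1.

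**Figure D5:**
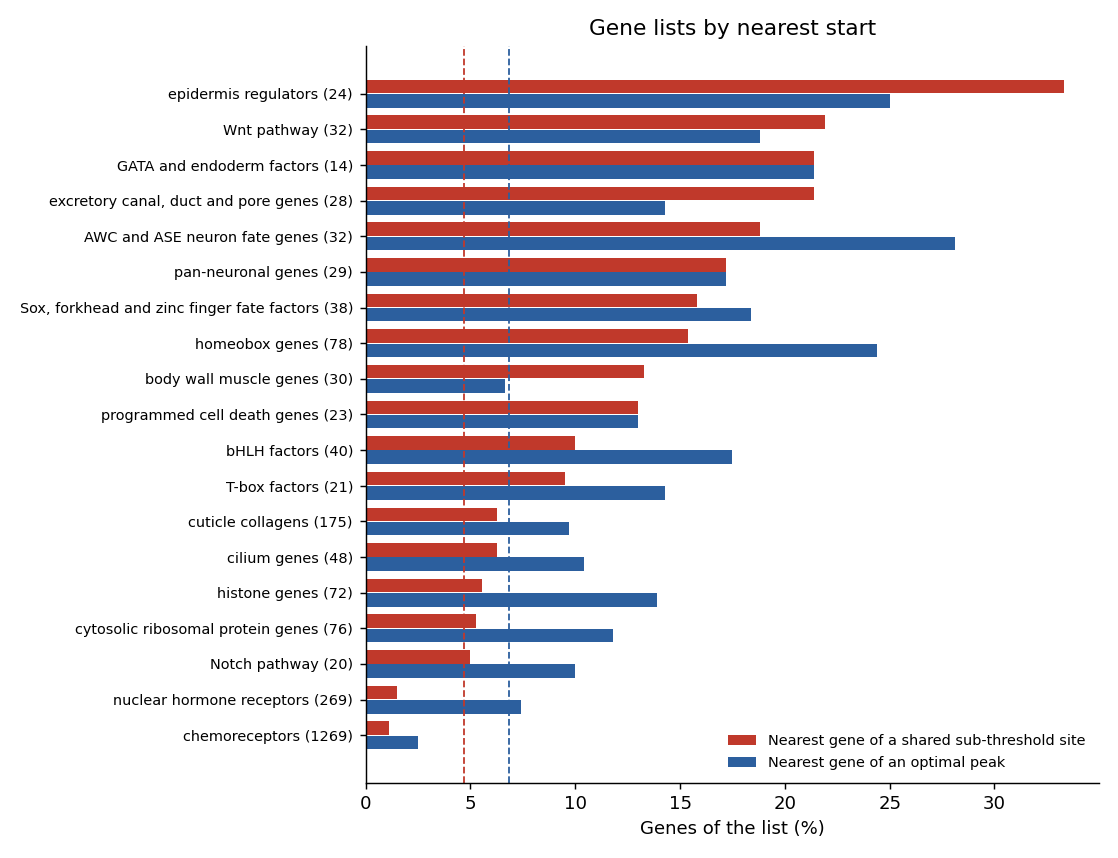
Share of each gene list (horizontal, %; list size in brackets) whose members are the nearest protein-coding start of a shared sub-threshold site (upper bar) or of an optimal peak (lower bar). Dashed lines mark the shares over all nuclear protein-coding genes, 4.69% for shared sites and 6.86% for optimal peaks, and the lists include epidermis regulators at 33.3% and 25%, AWC and ASE neuron fate genes at 18.8% and 28.1%, and chemoreceptors at 1.1% and 2.52%.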

How the data were processed

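Only peak lists were analysed. Per the file descriptions, the authors derived a list for each of 2 replicates, a pooled list and an optimal list from alignments of the replicates and a control. Which aligner and peak caller they used was not given in the sources used here. The deposited signal values (column 7) and −log10 q-values (column 9) are the authors' and serve here to rank and describe the entries of 1 list at a time. Depth is unknown. The 1248 sites, the gene lists and the motifs were chosen with earlier results of these data known, and 7 list names had no match. Summits on ce11 were set against the WBcel235 genome and the Ensembl release 115 annotation. Motifs were counted on both strands within 100 bp of the summit, and telomere repeats needed 3 units in a window about as wide as the entry. Shares were compared with exact sign and Fisher tests in scipy 1.17.1 under Python 3.11.15 (two-sided, Benjamini-Hochberg adjustment per family, threshold 0.05), checked on simulated lists. Shares have exact Clopper-Pearson 95% intervals. Genes named are the nearest protein-coding starts of the 10 strongest sites and the 12 strongest core-only sites, the leading core-only genes of each list, the 5 genes with most sites (ties ordered by loci, then by signal), ceh-36 and unc-119. Genes named beyond this rule, such as those of coreless list sites and the sites of highest replicate rank, were chosen after their values were seen. Of the 10 strongest sites, 1 is not reported here.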

Additional observations from a re-analysis of the deposited data

How the results depend on the processing

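No paired analysis was possible because there was only 1 group. The number of shared sites depended on how deep the replicate lists were read, with 301 for the 3000 strongest entries, 2831 for the 8000 strongest and 3765 to 3786 when 1 replicate alone decided. Genes with a site in the start window numbered 134, 1071 and 1410 to 1415 under these settings, 320 with a window of 500 bp on both sides, 936 by nearest start and 162 for core-only sites. The excess of TAATCC over the flank kept its direction and call under every alternative run, with ratios from 5.82 to 10.0.

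With the 3000 strongest entries the odds ratio of TAATCC against 1-replicate entries was 1.27 and against optimal peaks 0.775, and neither passed. Other odds ratios there that no longer passed were 0.815 for introns and 0.851 for intergenic DNA against optimal peaks, and 1.09 for gene starts and 1.12 for intergenic DNA against 1-replicate entries. In the shared sites' interquartile range of pooled signal, TAATCC had 1.29 against 1-replicate entries and 2.21 against remaining entries, not passing. The second interval was wide, from 0.964 to 5.72, because few remaining entries reach that range. Their upper quartile was 40.2, and the range begins at 61.8. This comparison therefore cannot decide. Against optimal peaks the TAATCC odds ratio was 0.905 with 50% coverage required, 0.887 for the strongest entry of each locus and 0.906 with both replicate summits inside the pooled entry, again not passing. The last 2 settings, and that of no replicate entry on an optimal peak, were added after seeing the data.

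For intergenic DNA against optimal peaks the odds ratio fell short of the threshold at 0.843 with 50% coverage, 0.848 with both summits inside the entry and 0.886 with gene starts drawn at 1000 bp. Intergenic DNA against 1-replicate entries stood at 1.17 with the strongest entry of each locus. Gene starts against 1-replicate entries stood at 1.19 with 50% coverage and 1.17 at 200 bp. Gene starts against optimal peaks passed no threshold in the report, stood at 1.32 and passed at 200 bp, and turned direction at 0.951 with 8000 entries, 0.899 to 0.944 when 1 replicate decided, and 0.979 at 1000 bp. Small RNA genes against 1-replicate entries passed with 8000 entries (1.71). Without repeats and small RNA genes TTAGGC turned to 0.939 against the flank and 1.07 against optimal peaks, which that removal makes by construction, and CAGCTG turned to 0.966 with a flank 1000 bp to the left. The cause of these turns was not tested. When 1 replicate decided there were no 1-replicate entries, so those contrasts had no value. The lists give no reads, so no depth limit could be set.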
